A study of Mus musculus with 8 samples.

Results

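The genes described here encode the machinery that carries glucose into the cell, splits it to pyruvate and sends pyruvate on to lactate or to the mitochondrion, together with a few genes of the oxygen sensing pathway that controls many of them. They were chosen by name, as 38 gene symbols, and all 38 were found in the count table. Aldoa stands there under 2 identifiers, so the 38 genes fill 39 rows of 15566, and all 39 rows passed the filter on low counts, which left 12938 genes for testing.

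Glycolysis gives a cell ATP and building blocks without oxygen, and myeloid cells lean on it when they migrate, divide or become inflamed. Its flow is set chiefly at glucose entry, at hexokinase, at phosphofructokinase and at pyruvate kinase. At its end pyruvate is either reduced to lactate by lactate dehydrogenase or imported into mitochondria and oxidised by pyruvate dehydrogenase, which the PDK kinases switch off. The transcription factor HIF-1 induces many of these genes when oxygen is low, and bone marrow is a tissue of low oxygen tension.

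RNA came from Ly6C-high monocytes, monocytes known for moving into blood and inflamed tissue, sorted from femur and tibia as live CD45+ CD11b+ CD115+ CD117- Ly6G- cells. The COMMD10-deficient group (labelled LysMDCommd10, 4 libraries) lacked Commd10, a COMMD family protein trafficking gene, in cells with LysM-Cre activity, and the Commd10fl/fl control group (4 libraries) consisted of weight-matched littermates carrying the floxed gene. All mice were untreated C57BL/6 males, 8 weeks old, and polyadenylated RNA was sequenced. LysM-Cre is active in neutrophils and macrophages as well as in monocytes, so the deletion is not restricted to the sorted cells. The labels do not say which mouse or litter each library came from, and the p-values cover only variation among the 8 libraries, which may be technical. The running numbers in the sample names were 11 to 14 in the deficient and 2 to 6 in the control group, so genotype and any order of handling cannot be told apart.

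Total counts were 17099454 to 30722262 in the deficient and 14231121 to 31040255 in the control libraries, and 1 count stood for 0.0322 to 0.0703 counts per 1000000 counts (CPM). Cre was counted 499 to 987 times in the deficient libraries and 0 times in each control, which allows up to 0.211 CPM in the shallowest control (3 counts, counting error only). Commd10 averaged 21.3 ± 2.17 against 29.2 ± 1.46 CPM (SD, n = 4 each; edgeR adjusted p = 0.0292), counted over the whole gene. Lyz2, into which the LysM-Cre line has Cre inserted, averaged 10380 ± 656 against 21036 ± 1226 CPM (adjusted p = 2.51e-06). The monocyte markers were strong in every library, with Ccr2 at 2258 to 2352 CPM in deficient and 2362 to 2504 CPM in control libraries. Ly6g, which the gate excludes, was at 0.232 to 0.423 CPM and at 0 to 0.322 CPM. Other genes of the mature neutrophil marker list ranged from low to high. Retnlg was at 0.468 to 0.903 CPM in deficient and 0.447 to 1.51 CPM in control libraries. Cxcr2 was at 1.04 to 1.26 and 0.562 to 1.39 CPM. Csf3r was at 345 to 397 and 360 to 423 CPM, and Mmp8 at 241 to 399 and 215 to 269 CPM. The list (14 of 15 symbols in the table, Ly6g among them) summed to 1168 to 1376 CPM in deficient and 1168 to 1298 CPM in control libraries. Of its 13 tested genes 10 were higher in the deficient group, against 50.2% of all genes, and 0 had an edgeR adjusted p under 0.05. Deficient 2 stood apart from the rest: it held the highest value of 23.6% and the lowest value of 22.2% of all genes tested.

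Of the 39 rows, 1 rose and 1 fell in the deficient monocytes at an adjusted p under 0.05 (edgeR quasi-likelihood test, Benjamini-Hochberg over all 12938 genes). Pfkp, the platelet-type phosphofructokinase, rose 1.19-fold, and Pdk2, a kinase that inhibits pyruvate dehydrogenase, fell to 66.4% of the control level. The 2 calls are 5.13% of the rows, against 0.873% of all genes tested (0.356% higher and 0.518% lower). At an unadjusted p under 0.05 there were 19 rows (48.7%, against 24% of all genes), 14 of them higher and 5 lower (11.9% and 12.1% of all genes). In 9 rows (23.1%, against 12.6% of all genes) the deficient and control libraries did not overlap: Slc2a1, Pfkp, Aldoa, Pgam1 and Egln1 were higher, and Ldhb, Pdk1, Pdk2 and Bnip3 were lower (5.93% and 6.7% of all genes). The median log2 fold change was 0.02 over the 39 rows, with 23 higher and 16 lower, and 0.00 over all genes, with 50.2% higher. The middle of the list thus lay near that of all genes, and its members went in both directions.

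**Figure D1:**
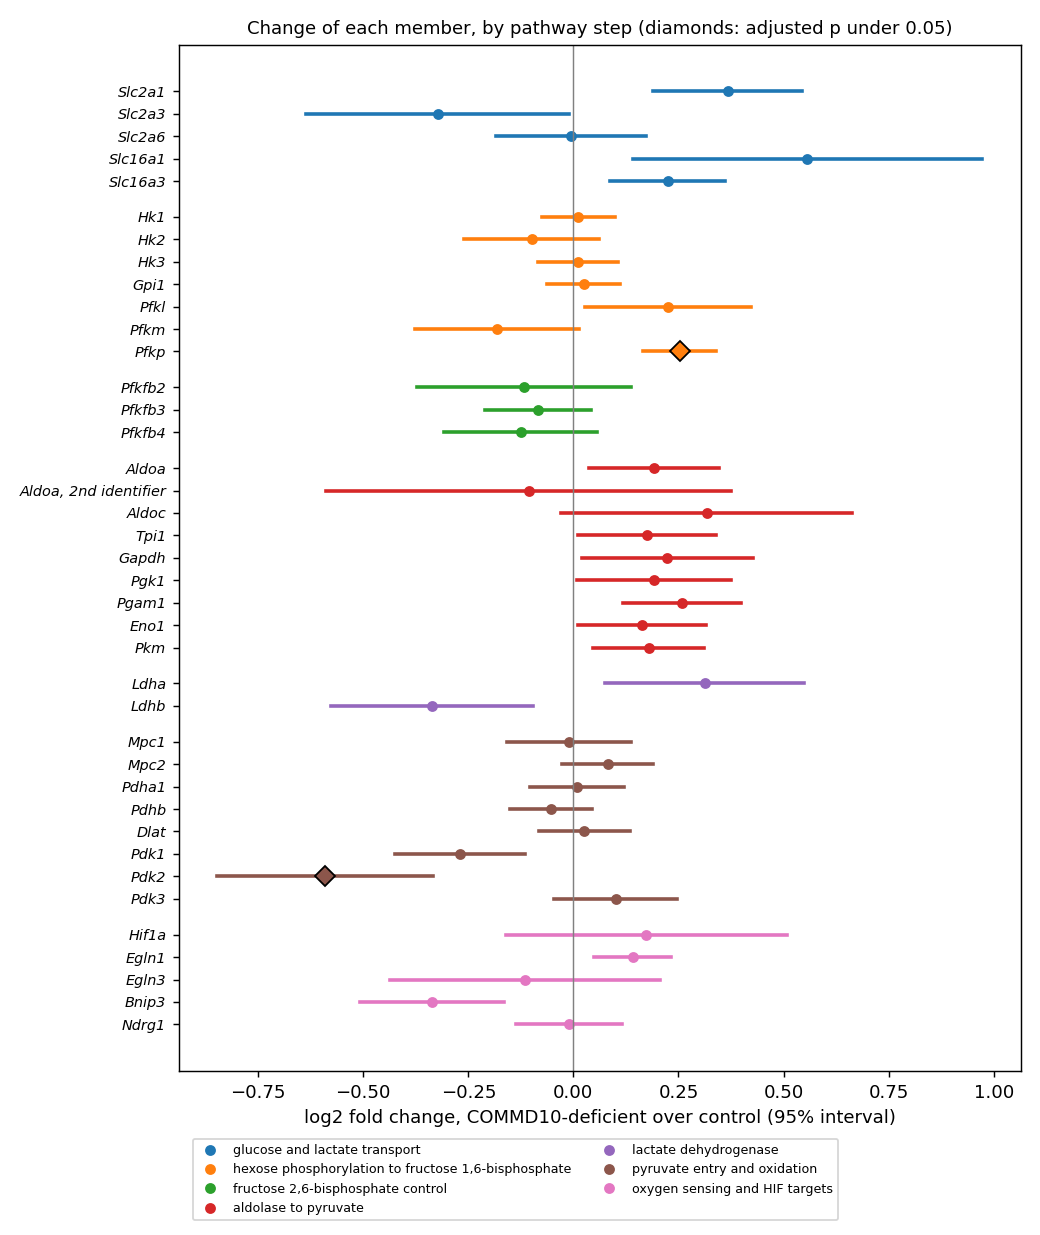
Log2 fold change of each member, COMMD10-deficient over control, with its 95% interval from the edgeR fit. Rows run in pathway order, colours mark the steps, and diamonds mark the 2 rows past the threshold: Pfkp at 0.25 and Pdk2 at -0.59.

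The calls depended on which libraries were included, as the count over all genes did. Pfkp kept its call in 4 of 8 fits that left out 1 library and lost it without deficient 4 (adjusted p = 0.138), control 1 (0.0638), control 3 (0.108) or control 4 (0.113). Pdk2 kept its call in 3 of 8 and lost it without deficient 2 (0.0806), deficient 4 (0.173), control 1 (0.0795), control 3 (0.134) or control 4 (0.153). Over those fits all genes tested gave between 1 and 522 calls, and the log2 fold changes stayed between 0.24 and 0.27 for Pfkp and between -0.72 and -0.53 for Pdk2. DESeq2, which made 831 calls (7.33% of the genes it adjusted), called 9 members, 6 higher and 3 lower (3.48% and 3.84% of all genes). Besides Pfkp and Pdk2 these were Slc2a1, Slc16a1, Slc16a3, Pgam1 and Ldha, which were higher, and Pdk1 and Bnip3, which were lower. limma-voom called Pfkp and Pdk2 alone among the members, 1 in each direction (0.363% and 0.711% of all genes, 1.07% in all).

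Glucose enters through GLUT proteins of the Slc2a family. Slc2a1, which encodes GLUT1, the widely expressed basal transporter, was at 51.0, 64.2, 52.9 and 60.7 CPM in deficient 1 to 4, against 43.9, 49.6, 42.8 and 41.3 CPM in control 1 to 4. Every deficient library lay above every control, the nearest pair being deficient 1 and control 2. The log2 fold change was 0.37 (SE 0.08, 95% interval 0.19 to 0.54, edgeR adjusted p = 0.0552), short of the threshold. It passed without deficient 1, without deficient 3 and without control 2, with adjusted p-values from 0.0276 to 0.197 over the 8 fits.

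Slc2a6, which encodes GLUT6, a transporter of intracellular membranes, was the most abundant of the 3 per kilobase of exon. It had 118, 103, 112 and 107 CPM in the deficient libraries, against 105, 132, 102 and 103 CPM in the controls. The groups overlapped, and the log2 fold change of -0.01 had a 95% interval of -0.19 to 0.17. Slc2a3, which encodes the high-affinity GLUT3, was low, at 3.96 to 5.73 CPM in deficient and 4.74 to 6.39 CPM in control libraries (log2 fold change -0.32, SE 0.14, adjusted p = 0.197). In shares of the family by CPM per kilobase, Slc2a1 made up 31.9% ± 3.67 in deficient and 26.5% ± 0.894 in control libraries (SD, n = 4 each), with no overlap. Slc2a6 made up 66.9% ± 3.59 and 71.8% ± 1.14, without overlap, and Slc2a3 1.23% ± 0.225 and 1.63% ± 0.355.

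Lactate leaves through monocarboxylate transporters. Slc16a3, which encodes MCT4, the exporter typical of glycolytic cells, was at 115.5, 129, 118.5 and 129.1 CPM in the deficient libraries, against 105.9, 117.6, 102.5 and 95.6 CPM in the controls. Only control 2 reached into the deficient range (log2 fold change 0.22, SE 0.06, adjusted p = 0.0827). Slc16a1, which encodes MCT1, had the largest fold difference of the higher members but spread widely: 9.01, 13.3, 7.49 and 10.7 CPM in deficient, against 8.91, 6.77, 5.76 and 6.13 CPM in control libraries (log2 fold change 0.56, SE 0.19, adjusted p = 0.123). Slc16a3 made up 91.1% ± 1.64 of the pair per kilobase in deficient and 92.7% ± 1.32 in control libraries.

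The first steps inside the cell showed intervals close to 0. Hexokinases trap glucose as glucose 6-phosphate, and Gpi1 turns this into fructose 6-phosphate. Gpi1, the most abundant gene of these steps per kilobase, was at 604, 654, 645 and 657 CPM in deficient and at 636, 627, 619 and 635 CPM in control libraries, so the groups overlapped. Its log2 fold change of 0.02 had a 95% interval of -0.06 to 0.11. The interval was -0.07 to 0.10 for Hk1, the constitutive isoform, -0.26 to 0.06 for Hk2, the inducible one, and -0.09 to 0.11 for Hk3, the myeloid isoform. Hk3 was the leading hexokinase per kilobase in both genotypes, at 53.0% in deficient and 51.7% in control libraries (52.0% to 53.8% and 50.2% to 53.2%, with overlap).

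Phosphofructokinase commits the sugar to glycolysis, and of its 3 isoforms 1, Pfkp, passed the threshold. Pfkp (ENSMUSG00000021196, GRCm38 chromosome 13, 6579768 to 6648777, minus strand, protein-coding) was at 160, 165, 156 and 162 CPM in deficient 1 to 4, against 141, 136, 132 and 131 CPM in control 1 to 4. The 2 groups were tight and clearly apart, with means of 160.8 ± 3.59 and 135 ± 4.60 CPM (SD, n = 4 each). The log2 fold change was 0.25 (SE 0.04, 95% interval 0.17 to 0.34, edgeR adjusted p = 0.0292). Of the 50-base stretches of its principal transcript, 17.1% are shared with transcripts of Pitrm1, a neighbouring gene that was at 33.5 ± 1.30 and 34.3 ± 0.505 CPM (log2 fold change -0.03, adjusted p = 0.691). Pfkl, the liver-type isoform, was at 60.9 to 70.2 CPM in deficient and 49.4 to 66.1 CPM in control libraries (log2 fold change 0.23, SE 0.09, adjusted p = 0.161). Pfkm, the muscle-type isoform, was low, at 8.01 to 8.50 and 8.26 to 10.5 CPM (log2 fold change -0.18, SE 0.09, adjusted p = 0.238). Pfkm made up 10.2% ± 0.280 of the family per kilobase in deficient and 13.2% ± 1.58 in control libraries, without overlap. The shares of Pfkl (40.4% ± 1.37 and 39.4% ± 3.17) and Pfkp (49.4% ± 1.14 and 47.4% ± 1.75) overlapped between genotypes. These shares depend on the length used, as Pfkp has 13401 bases of exon and a principal transcript of 4145 bases. Per kilobase of principal transcript, a length chosen after the data were seen, Pfkp made up 65.5% and 64.1%. By that length Pfkl made up 29.6% and 29.5%, and Pfkm 4.84% and 6.39%.

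PFKFB enzymes make and break fructose 2,6-bisphosphate, the activator of phosphofructokinase. Pfkfb4, the most abundant of the 3, was at 135, 102, 134 and 126 CPM in deficient and at 126, 140, 134 and 140 CPM in control libraries. Deficient 2 was the lowest of all 8, and the other deficient libraries lay within or just under the control range. The log2 fold changes were -0.13 for Pfkfb4, -0.08 for Pfkfb3, the isoform with the strongest kinase side, and -0.12 for Pfkfb2, with adjusted p-values of 0.372, 0.391 and 0.562. Pfkfb4 held 77.8% ± 1.15 of the family per kilobase in deficient and 78.3% ± 0.512 in control libraries.

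The promoter of Pfkp is shown with those of Pdk2, Ldha and Ldhb, the genes on which the results for phosphofructokinase, pyruvate dehydrogenase kinase and lactate dehydrogenase turn. Each sequence is the 250 bases before a RefSeq transcription start (GRCm38.p6), 5′ to 3′ on the gene's strand, and capitals mark ACGTG and GCGTG, the core letters of the HIF response element, on either strand.
Pfkp (chr13:6648772-6649021, minus strand): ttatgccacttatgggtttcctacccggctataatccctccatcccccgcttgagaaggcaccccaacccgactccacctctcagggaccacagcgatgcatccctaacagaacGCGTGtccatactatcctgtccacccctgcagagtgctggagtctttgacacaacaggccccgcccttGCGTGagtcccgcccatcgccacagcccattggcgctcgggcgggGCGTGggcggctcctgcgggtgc
Pdk2 (chr11:95041372-95041621, minus strand): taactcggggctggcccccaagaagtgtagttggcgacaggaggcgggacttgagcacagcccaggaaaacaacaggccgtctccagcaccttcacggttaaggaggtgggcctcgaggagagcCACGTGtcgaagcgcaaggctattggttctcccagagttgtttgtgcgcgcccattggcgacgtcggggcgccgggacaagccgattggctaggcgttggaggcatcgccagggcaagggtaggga
Ldha (chr7:46845554-46845803, plus strand): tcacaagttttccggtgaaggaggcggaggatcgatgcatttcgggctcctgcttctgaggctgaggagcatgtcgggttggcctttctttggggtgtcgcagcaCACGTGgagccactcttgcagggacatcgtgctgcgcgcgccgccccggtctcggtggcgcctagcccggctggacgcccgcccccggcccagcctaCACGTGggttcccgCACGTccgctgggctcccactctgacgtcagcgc
Ldhb (chr6:142507958-142508207, minus strand): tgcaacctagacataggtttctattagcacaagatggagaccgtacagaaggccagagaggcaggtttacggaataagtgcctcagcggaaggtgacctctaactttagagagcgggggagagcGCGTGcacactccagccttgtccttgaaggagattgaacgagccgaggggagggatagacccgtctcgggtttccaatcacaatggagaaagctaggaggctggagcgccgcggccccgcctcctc

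In the Pfkp window GCGTG stands 3 times and ACGTG is not found, while the Ldha window has 5 matches of ACGTG and that of Ldhb has 1 of GCGTG. The palindrome CACGTG holds ACGTG on both strands, overlapping, and counts as 2 matches. It stands 1 time in the Pdk2 window. Among the 250-base windows of 36 members that had a RefSeq entry, 45.3% of 53 held ACGTG, 54.7% held GCGTG and 81.1% held either motif. Of 32851 windows of all genes, 16.6%, 28.2% and 38.6% did. Windows of the same gene can overlap, as those of Aldoa and Eno1 do, and then count the same match again. The windows of all genes were not matched to the members for expression or base composition, and some members were listed as HIF targets. The difference was not tested and cannot be read as an enrichment of HIF elements. A match describes the letters and is no evidence of binding, and the choice of start changes the count. Another RefSeq start of Pdk2 (window chr11:95040876-95041125) had no match, and another of Ldha (window chr7:46846832-46847081) had 1 of GCGTG and none of ACGTG, the same count as the Ldhb window.

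**Figure D2:**
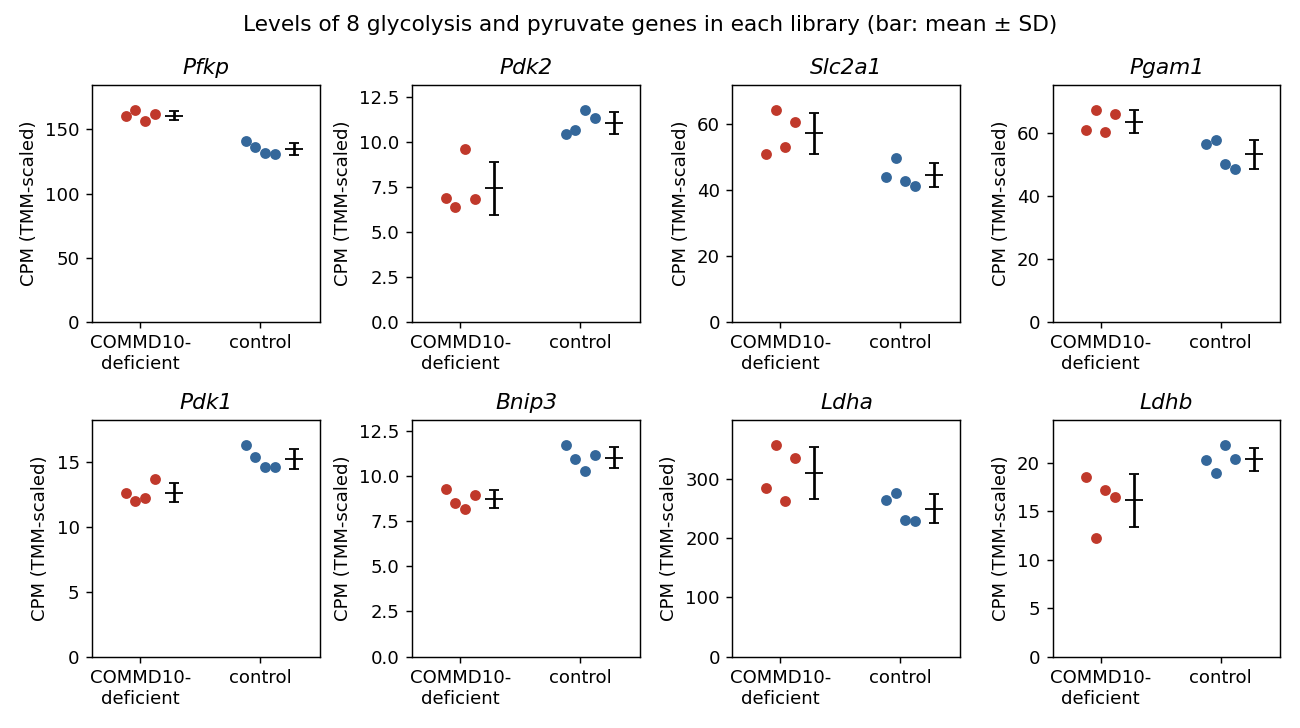
CPM of 8 members in each library, with COMMD10-deficient libraries in red and control libraries in blue and the mean ± SD beside them (n = 4 each). The axes start at 0. Pfkp, Slc2a1 and Pgam1 lie higher and Pdk2, Pdk1, Bnip3 and Ldhb lower in all 4 deficient libraries, while Ldha overlaps.

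From aldolase to pyruvate kinase, the enzymes that split the sugar and harvest ATP and NADH, 8 of 9 rows were higher in the deficient group, against 50.2% of all genes tested, and none passed the threshold with edgeR. At an unadjusted p under 0.05 there were 7 rows, all higher, against 11.9% of all genes in that direction. DESeq2 called Pgam1 as higher, against 3.48% of all genes in that direction. The median log2 fold change was 0.19, and the 8 principal genes Aldoa, Aldoc, Tpi1, Gapdh, Pgk1, Pgam1, Eno1 and Pkm ranged from 0.16 (Eno1) to 0.32 (Aldoc). Their direction was the same under TMM, DESeq2 and upper quartile scaling.

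Pkm, pyruvate kinase, was the most abundant member per kilobase. It had 1585, 1886, 1536 and 1742 CPM in deficient 1 to 4, against 1506, 1556, 1468 and 1430 CPM in control 1 to 4. Only deficient 3 fell within the control range (log2 fold change 0.18, SE 0.06, adjusted p = 0.116). Aldoa, the main aldolase, was at 692.6, 884, 700 and 802 CPM, against 681.9, 691.7, 655 and 667 CPM. All deficient libraries were above the controls, deficient 1 by less than 1 CPM over control 2 (log2 fold change 0.19, SE 0.07, adjusted p = 0.138). Pgam1, phosphoglycerate mutase, was at 61.1, 67.3, 60.3 and 66.2 CPM, against 56.6, 57.8, 50.4 and 48.5 CPM. Its groups did not overlap either (log2 fold change 0.26, SE 0.06, adjusted p = 0.0654).

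Gapdh was at 596 to 787 CPM in deficient and 536 to 618 CPM in control libraries, and Eno1, enolase, at 496 to 606 and 456 to 530 CPM. Tpi1, triosephosphate isomerase, Pgk1, phosphoglycerate kinase, and Aldoc, the brain-type aldolase, overlapped between genotypes in the same way. The adjusted p-values of these 5 genes were 0.173, 0.184, 0.186, 0.193 and 0.245. The second Aldoa row, upstream of the main gene, had 11 to 31 counts per library and a log2 fold change of -0.11.

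The libraries of 1 genotype differed among themselves in these genes. Deficient 2 held the highest value in 7 of the 9 rows and deficient 4 in the other 2, and control 4 held the lowest in 6. Summed over the step, the level was 3712, 4557, 3644 and 4190 CPM in deficient 1 to 4, against 3604, 3715, 3446 and 3372 CPM in control 1 to 4. Deficient 1 and 3 thus lay close to control 1 and 2, and the excess of the group mean came mostly from deficient 2 and 4. Without deficient 2, the log2 fold change of Pkm, Gapdh and Aldoa was 0.12, 0.14 and 0.12.

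Summed markers of other cells also varied across these libraries. The neutrophil precursor list (9 of 10 symbols in the table, Elane, Mpo and Prtn3 among them) summed to 535, 674, 468 and 651 CPM in deficient 1 to 4, against 501, 411, 405 and 362 CPM in control 1 to 4. The erythroid list (10 of 10) summed to 448, 259, 489 and 288 CPM, against 697, 579, 418 and 732 CPM. No symbol of either list in the table was at 0 in any library. The neutrophil precursor genes did not all differ alike. Elane, Mpo and Prtn3 had log2 fold changes of 0.75, 0.82 and 0.93, and Fcnb and Cebpe of 0.19 and 0.13. Gstm1, a large part of the sum at 151 and 156 CPM, was at -0.05. Of the 8 tested, 7 were higher, against 50.2% of all genes, and 0 passed the threshold with edgeR. Deficient 2 and 4 were the highest in the first sum and the lowest in the second, the same 2 libraries that were highest for most of the lower glycolytic genes. The part of these cells in the result was not tested, and in bulk RNA fewer cells of a type and less RNA per cell cannot be told apart.

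**Figure D3:**
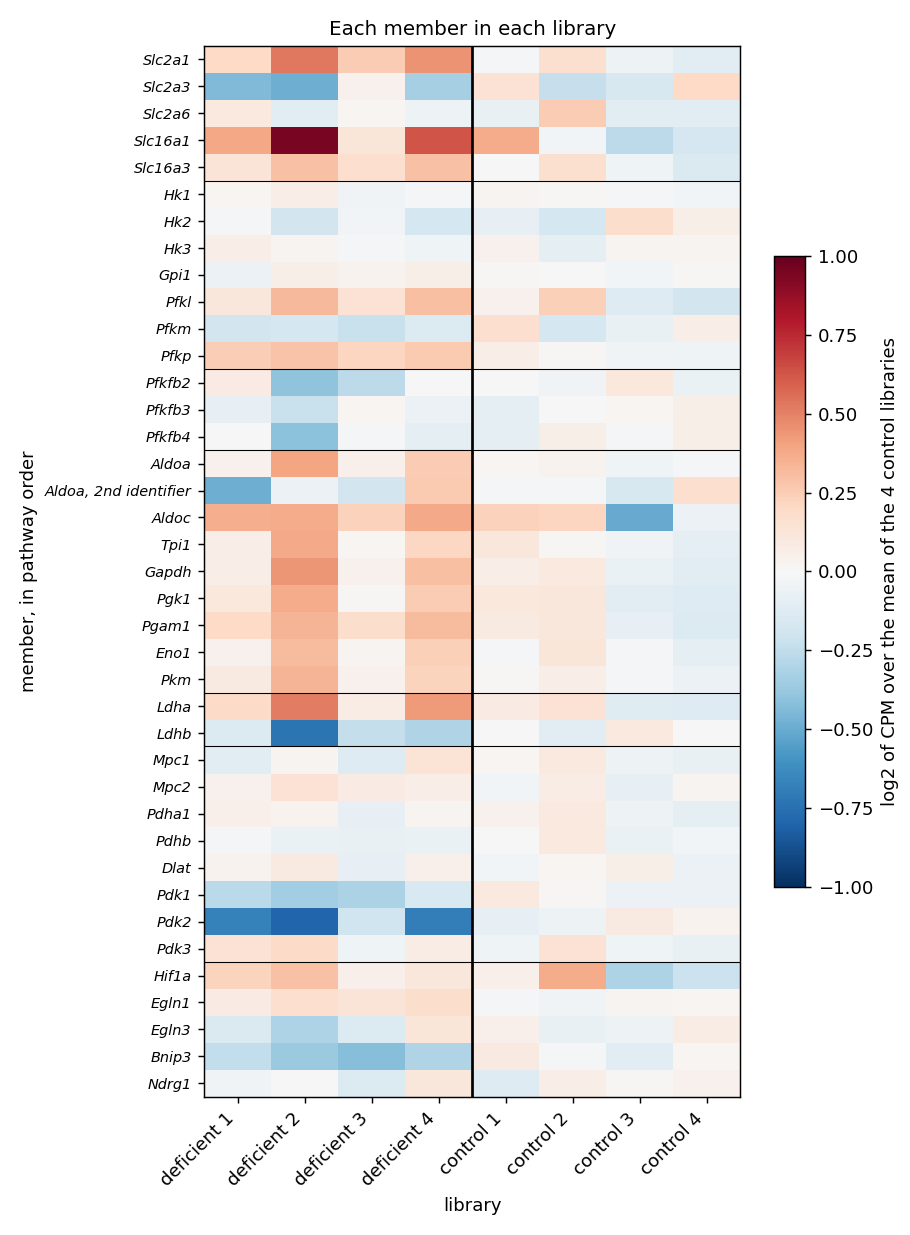
Log2 ratio of the CPM of each member in each library to the mean of the 4 control libraries, with deficient libraries left of the black line and members in pathway order. In Gapdh, Pkm and Ldha the cells of deficient 2 and 4 are the reddest, and Pdk2 and Bnip3 are blue in all 4 deficient columns.

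Several of these genes have near-identical copies elsewhere in the genome, and reads from shared stretches may have been dropped or misplaced by the authors' counting. Of the 50-base stretches of the principal transcript, 82.5% of Gapdh, 72.2% of Eno1, 68.0% of Pgk1, 41.5% of Pgam1, 34.4% of Pkm, 17.1% of Ldha and 13.5% of Aldoa also stand in a transcript of another annotated gene. Beyond these steps the share was 44.2% for Mpc1, 30.3% for Pdhb, 27.0% for Ldhb, 25.3% for Gpi1, 25.1% for Pfkfb2, 17.1% for Pfkp, 16.9% for Pdha1 and 14.6% for Ndrg1. Matches on either strand were counted, so an overlapping gene on the other strand adds to the share as well. The largest partners of Pfkp and Pdha1 were Pitrm1 (17.1%) and Map3k15 (16.5%), which are different genes and not copies. The levels of all these genes are therefore uncertain, and so is the share of Ldha in the lactate dehydrogenase pair. Pdk1, Pdk2, Pdk3, Hk2, Hk3 and Slc16a3 share no such stretch.

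Lactate dehydrogenase is a tetramer of A and B subunits, of which A favours lactate formation and B is typical of oxidative tissue, and the 2 genes differed in opposite directions. Ldha was at 284, 356, 263 and 335 CPM in deficient 1 to 4, against 264, 276, 229 and 228 CPM in control 1 to 4. Deficient 3 lay within the control range, just under control 1, and deficient 2 and 4 were far above it (log2 fold change 0.31, SE 0.10, 95% interval 0.08 to 0.55, adjusted p = 0.126). Ldhb was at 18.6, 12.3, 17.3 and 16.5 CPM, against 20.4, 18.9, 21.9 and 20.4 CPM. All deficient libraries were below the controls, deficient 2 the lowest (log2 fold change -0.34, SE 0.11, 95% interval -0.58 to -0.09, adjusted p = 0.114). Neither gene passed the edgeR threshold.

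Per kilobase of exon, Ldha made up 87.9%, 93.2%, 87.8% and 90.6% of the pair in deficient 1 to 4, against 86.0%, 87.3%, 83.3% and 84.1% in control 1 to 4. The shares did not overlap, at 89.9% ± 2.57 and 85.2% ± 1.84 (SD, n = 4 each). Per kilobase of the principal transcript in place of all exons, a length chosen after the data were seen, the shares were 93.2% ± 1.77 and 90.0% ± 1.31, again without overlap. By that length the shares of Slc2a1, Pfkm and Pdk3 did not overlap either, and that of Slc2a6 did, at 73.3% ± 3.09 and 77.4% ± 1.07.

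**Figure D4:**
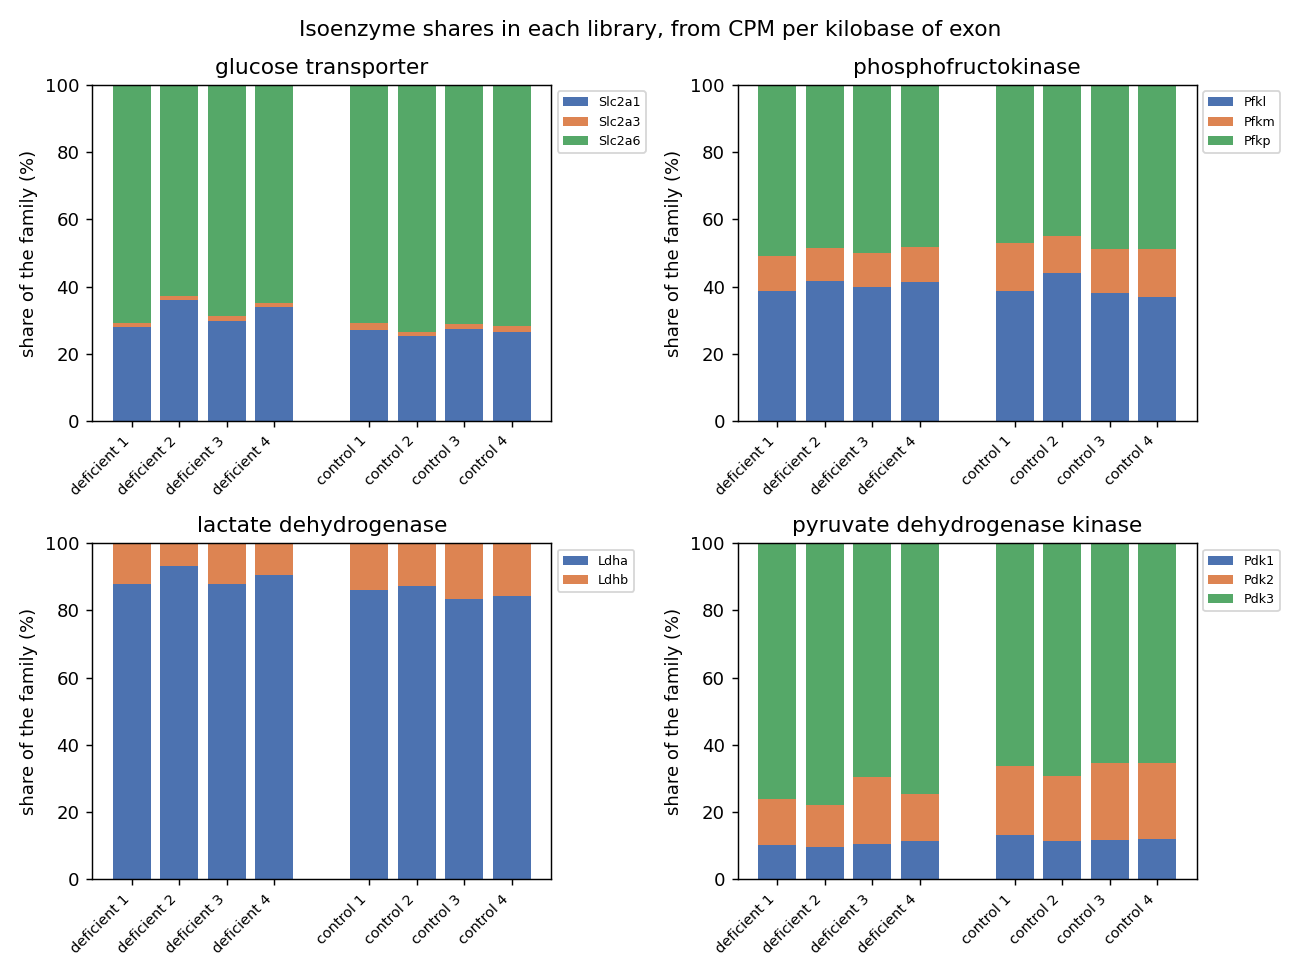
Share of each gene in 4 families, in percent of the summed CPM per kilobase of exon, in each of the 4 deficient libraries on the left and the 4 control libraries on the right of each panel. Ldha, Pdk3 and Slc2a1 have higher shares and Ldhb, Pfkm and Slc2a6 lower shares in every deficient library than in any control, and Pdk2 overlaps.

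Pyruvate that is not reduced enters the mitochondrion through the carrier made of Mpc1 and Mpc2 and is oxidised by pyruvate dehydrogenase, whose subunits are encoded by Pdha1, Pdhb and Dlat. None of these 5 genes reached an unadjusted p of 0.05. Pdha1, the most abundant per kilobase of all exons, was at 119, 118, 109 and 117 CPM in deficient and at 119, 123, 111 and 107 CPM in control libraries. These ranges lay almost on top of each other. Per kilobase of the principal transcript, Pdhb was the most abundant of the 5, at 52.5 ± 1.10 and 54.5 ± 2.63 CPM per kilobase, and Pdha1 was at 40.6 ± 1.63 and 40.4 ± 2.53 (SD, n = 4 each). The 95% intervals of the log2 fold changes were -0.10 to 0.12 for Pdha1, -0.15 to 0.05 for Pdhb, -0.08 to 0.14 for Dlat, -0.16 to 0.14 for Mpc1 and -0.03 to 0.19 for Mpc2.

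Of the 3 kinases that phosphorylate and inactivate the complex, 1, Pdk2, passed the threshold. Pdk2 (ENSMUSG00000038967, GRCm38 chromosome 11, 95026258 to 95041354, minus strand, protein-coding), the widely expressed isoform, was at 6.89, 6.35, 9.59 and 6.83 CPM in deficient 1 to 4, against 10.4, 10.6, 11.7 and 11.3 CPM in control 1 to 4. Deficient 3 stood well above the other 3 deficient libraries and still under every control. The means were 7.42 ± 1.47 and 11.03 ± 0.602 CPM (SD, n = 4 each), and the log2 fold change was -0.59 (SE 0.12, 95% interval -0.85 to -0.33, edgeR adjusted p = 0.0459). Among the deficient libraries, deficient 3 was also the highest in the erythroid marker sum (489 CPM, against 259 to 448 CPM in the others) and in the B cell marker sum (477 CPM, against 414 to 426 CPM). Deficient 3 was also the highest of its group in the macrophage marker sum (204 CPM, against 175 to 199 CPM) and the shallowest, with 17099454 counts. It was the lowest of its group in the mature neutrophil sum (1168 CPM, against 1313 to 1376 CPM). The same held for neutrophil precursors (468 CPM, against 535 to 674 CPM), T and NK cells, and eosinophils, basophils and mast cells. In control 1 to 4 the erythroid sums were 697, 579, 418 and 732 CPM, and the B cell sums 489, 452, 560 and 622 CPM. The macrophage sums there were 206, 192, 204 and 227 CPM. Control 3 had the lowest erythroid sum and the highest Pdk2 level of the controls. In B cell sum and in Pdk2 level alike, control 3 and 4 lay above control 1 and 2. The part of these cells in the Pdk2 result was not tested. These levels of Pdk2 rest on 164 to 212 counts in the deficient and 167 to 349 counts in the control libraries.

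Pdk1, the isoform best known as a HIF-1 target, was at 12.6, 12.0, 12.2 and 13.7 CPM in deficient, against 16.3, 15.3, 14.6 and 14.6 CPM in control libraries. Its groups did not overlap, and it fell short of the threshold with edgeR (log2 fold change -0.27, SE 0.07, adjusted p = 0.0736). Pdk3, the most abundant of the family, was at 30.8, 31.8, 27.1 and 29.3 CPM, against 27.1, 30.9, 27.1 and 26.4 CPM, with overlap (log2 fold change 0.10, 95% interval -0.05 to 0.25, adjusted p = 0.382). Per kilobase of exon, Pdk3 made up 74.5% ± 3.49 of the 3 kinases in deficient and 66.6% ± 1.86 in control libraries, without overlap. Pdk2 made up 15.1% ± 3.32 and 21.4% ± 1.72, and Pdk1 10.4% ± 0.752 and 12.0% ± 0.780, both with overlap.

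Of the oxygen sensing genes and HIF targets, none passed the threshold with edgeR. Egln1, the prolyl hydroxylase PHD2 that marks HIF for destruction, was at 69.2, 73.6, 71.6 and 73.9 CPM in deficient, against 64.6, 63.9, 66.5 and 66.4 CPM in control libraries. The ranges were narrow and separate (log2 fold change 0.14, SE 0.04, adjusted p = 0.0922). Bnip3, a mitophagy receptor and classical HIF target, was at 9.30, 8.51, 8.19 and 8.94 CPM, against 11.7, 10.96, 10.3 and 11.2 CPM. It was lower in all 4 deficient libraries (log2 fold change -0.34, SE 0.08, adjusted p = 0.0585), and 62.5% of its 50-base stretches are shared with other annotated genes, so its level is uncertain.

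Ndrg1, a stress-response gene that HIF induces, was the most abundant of these 5 per kilobase. It had 199, 204, 185 and 219.9 CPM in deficient and 186, 213, 205 and 209 CPM in control libraries, with overlap (log2 fold change -0.01, 95% interval -0.14 to 0.12). Hif1a itself, the oxygen-regulated subunit of HIF-1, spread more within the controls, at 103 to 165 CPM, than in the deficient libraries, at 132 to 157 CPM (log2 fold change 0.17, SE 0.14, adjusted p = 0.492). Egln3, the hypoxia-induced hydroxylase PHD3, was low, with 30 to 71 counts per library (log2 fold change -0.11, SE 0.15). HIF-1 activity is set mainly by protein stability, which these counts do not measure.

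Companion genes of the same pathways were counted from lists that hold no member. Of 25 other glycolysis and pyruvate genes tested, 0 passed with edgeR, 11 had an unadjusted p under 0.05 (5 higher, 6 lower), against 24% of all genes, and DESeq2 called 1, against 7.33% of all genes. That gene was Bpgm, which makes the red cell metabolite 2,3-bisphosphoglycerate, at 22.8 ± 3.07 CPM in deficient and 32.3 ± 4.65 CPM in control libraries (SD, n = 4 each; log2 fold change -0.52, SE 0.12, edgeR adjusted p = 0.0628). The erythroid marker sum given above, 259 to 489 CPM in deficient and 418 to 732 CPM in control libraries, was lower as well, and its part in the Bpgm difference was not tested. Next came Slc2a8, which encodes the transporter GLUT8, at 7.65 ± 0.338 and 9.28 ± 0.624 CPM (log2 fold change -0.28, SE 0.08, adjusted p = 0.0905).

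Of 20 other oxygen sensing genes and HIF targets, 0 passed with edgeR, 7 had an unadjusted p under 0.05 (2 higher, 5 lower), against 24% of all genes. DESeq2 called Ankrd37 and P4ha1 as higher and Mxi1 as lower, 3 genes of 20, against 7.33% of all genes. P4ha1, a collagen prolyl hydroxylase, was at 42.3 ± 4.06 and 33.3 ± 3.31 CPM (log2 fold change 0.35, SE 0.08, edgeR adjusted p = 0.0585). Mxi1, a MYC antagonist, was at 77.4 ± 1.77 and 85.4 ± 0.999 CPM (log2 fold change -0.14, SE 0.04, adjusted p = 0.0796). Both were without overlap between genotypes, as were 5 of the 20 and 12.6% of all genes, and these HIF targets, like Slc2a1 and Bnip3 among the members, differed in opposite directions.

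Of the 9 genes of the pentose phosphate pathway, which draws glucose 6-phosphate off to make NADPH, 0 passed with edgeR or DESeq2 and 2 had an unadjusted p under 0.05, against 24% of all genes. These were G6pdx, its entry enzyme, at 553 ± 22.9 and 512 ± 3.89 CPM (log2 fold change 0.11, SE 0.04, adjusted p = 0.130), and Pgd, at 631 ± 16.5 and 576 ± 43.9 CPM (0.13, SE 0.05, adjusted p = 0.151). The median over the list was 0.08, with 7 of 9 genes higher, against 50.2% of all genes.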

How the data were processed

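The authors deposited a raw count for each gene and library, per the file headers, from single-end sequencing of polyadenylated RNA, per the labels' protocols, which mention no molecular identifiers. The submitters' processing notes list the GRCm38 build with STAR 2.7.3a, HTSeq 0.12.4, DESeq2 and cutadapt. Whether the counting used strand, and how it treated shared reads, is not given in these sources. No gene in the table has a maximum below 6 counts. Its 8 columns of normalized values were not used, and the Cre row stayed out of library sizes and tests. No libraries of a group agreed within sampling noise (chi-square per degree of freedom 2.88 to 23.4).

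Genes with low counts were removed by filterByExpr, set to 10 counts and a total of 15. The rest were TMM-scaled and fitted with robust quasi-likelihood in edgeR 4.0.16 (R 4.3.3), with genotype as the only term, two-sided. The libraries of the groups share no replicate numbers in the labels and were not paired. The SE was derived from the F statistic. CPM of members and companions are TMM-scaled, marker sums and Cre are not. DESeq2 1.42.0 and limma-voom (limma 3.58.1) were alternatives. Lengths and coordinates come from GENCODE M21 (GRCm38), promoters from RefSeq (GRCm38.p6), in which 36 of 38 members matched. The fit was checked on simulated data. Named in full are members past the threshold, members without overlap and the most abundant of each step, and of each companion list the 2 smallest p where fewer than 2 passed. Of these, 1 companion gene that this rule names is not reported here. Members and lists were chosen with earlier results of these data known, so lists got no test.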

Additional observations from a re-analysis of the deposited data

Results flagged for a closer look

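In 7 of 114 groups of 4 libraries examined, 1 library lay far from the other 3, and chance alone flags about 1 in 20 such groups. Pdk2 was at 9.59 CPM in deficient 3, against 6.35 to 6.89 CPM in the other deficient libraries. The summed CPM of the pyruvate entry and oxidation genes was 361 in deficient 3, against 379 to 383 in the others. Aldoc was at 2.69 CPM in deficient 3, against 2.96 to 2.98 CPM, and Pdhb was at 81.9 CPM in deficient 1, against 78.4 to 78.8 CPM. Control 2 accounted for the other flags: Slc2a6 at 131.7 CPM, against 102 to 105 CPM in the other controls, Hk3 at 155 CPM, against 169 to 170.4 CPM, and Pdk3 at 30.9 CPM, against 26.4 to 27.1 CPM.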

How the results depend on the processing

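No paired analysis was possible because the groups share no replicate numbers in the labels. The count of genes past the threshold was 113, and 2 members passed. Other scalings, other filters on low counts and limma-voom kept both counts within 1.5 times and called Pfkp and Pdk2. DESeq2 gave 831 genes and 9 members. Leaving out 1 library gave 1 to 522 genes and 0 to 6 members. Without the shallowest library of each group 1 gene and 0 members passed. In that fit the adjusted p was 0.0904 for Pfkp and 0.0586 for Pdk2, and the log2 fold change turned to 0.0060 for Mpc1 and 0.032 for Ndrg1. The cause of these shifts was not tested. With 1 library left out, the log2 fold change crossed 0 for members close to it: Slc2a6 (-0.045 to 0.087), Hk1 (-0.0073 to 0.027), Hk3 (-0.023 to 0.027), the second Aldoa row ENSMUSG00000114515 (-0.26 to 0.017), Mpc1 (-0.064 to 0.022), Pdha1 (-0.024 to 0.041) and Ndrg1 (-0.054 to 0.030). The other members kept their direction in all fits. Depth was low for the second Aldoa row, with 11 to 31 counts per library, for Aldoc, with 23 to 91, and for Egln3, with 30 to 71.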

Other observations

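The tricarboxylic acid cycle, which burns the acetyl-CoA that pyruvate dehydrogenase makes, showed small differences: 15 of 18 genes were higher in the deficient group, against 50.2% of all genes, with a median log2 fold change of 0.05. With edgeR and with DESeq2 0 of them passed, and 2 had an unadjusted p under 0.05, against 24% of all genes. These were Idh3a, a subunit of isocitrate dehydrogenase, at 49.1 ± 6.14 CPM in deficient and 41.0 ± 3.24 CPM in control libraries (log2 fold change 0.26, edgeR adjusted p = 0.115), and Mdh2, malate dehydrogenase, at 190.8 ± 15.9 and 170.3 ± 12.3 CPM (0.16, adjusted p = 0.154).

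Of 13 genes of fatty acid oxidation and of coenzyme A and lipoate supply, 9 were lower, with a median of -0.05. With edgeR and DESeq2 0 passed, and 2 had an unadjusted p under 0.05 with edgeR, against 24% of all genes. Among these was Acadm, a dehydrogenase of fatty acid oxidation, at 64.1 ± 1.80 CPM in deficient and 68.4 ± 1.88 CPM in control libraries (log2 fold change -0.10, edgeR adjusted p = 0.202).

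All members together took 0.649% to 0.753% of the counts in the deficient and 0.608% to 0.657% in the control libraries, with deficient 2 the highest and control 4 the lowest.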
